A study of Bos taurus with 8 samples.

Results

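The WNT ligands, their receptors and coreceptors, their secreted antagonists and the R-spondins were followed in BUTE cells, an immortalized line from the uterine epithelium of a Holstein cow, after progesterone or its vehicle. Genes were taken by symbol: numbered WNT, FZD, DKK, SFRP and RSPO genes, and FRZB, WIF1, LRP5, LRP6, AXIN2, RNF43, ZNRF3, LGR4 and LGR5. This gave 50 of the 28709 genes of the table, comprising 19 ligands, 10 secreted antagonists, 10 Frizzled receptors, 2 LRP coreceptors, 4 R-spondins and 5 genes of the R-spondin receptor and feedback arm. One group received 10 µM progesterone for 24 h and the other received the vehicle DMSO for 24 h, with 4 libraries each. Cells of both groups were wild type, had been kept for 24 h in medium free of serum, steroids and phenol red with insulin-like growth factor 1, and had that growth factor at 50 ng/ml during treatment. The line came from a single animal and is immortalized, and it was grown with serum and estradiol before the experiment, which limits it as a model of the tissue. Libraries are named by the columns of the table, progesterone R1, R2, R3 and R6 and DMSO R1, R3, R7 and R9, because column numbers could not be tied to the replicate numbers of the samples.

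WNT proteins are secreted, lipid-modified signals that bind Frizzled receptors. Together with LRP5 or LRP6 as coreceptor they stabilise beta-catenin, which switches on target genes such as AXIN2, and with ROR or RYK receptors they signal without beta-catenin. DKK proteins occupy the LRP coreceptors and SFRP proteins bind the ligands themselves. R-spondins bind LGR receptors and hold back RNF43 and ZNRF3, the ubiquitin ligases that remove Frizzled from the cell surface. In the mouse uterus, WNT signals are needed for gland formation and for the response of the stroma to an embryo, and Wnt4 acts downstream of progesterone there.

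Libraries held between 23810841 and 32509792 rounded counts. DMSO R7 and R9 stood apart: across genes their log2 profiles correlated at 0.995 with each other, at 0.959 to 0.971 with the other 6 libraries, while those 6 correlated at 0.988 to 0.996. Results are therefore given also without R7 and R9, which leaves 2 DMSO libraries. Of 8 epithelial markers, 7 passed the filter on low counts, with KRT8 at 1739.5 ± 338 CPM (TMM-scaled counts relative to library size) with progesterone and 2481 ± 236 CPM with DMSO (mean ± SD, n = 4 each). EPCAM, which marks most epithelia, was at only 0.426 ± 0.131 and 1.42 ± 0.99 CPM, and CLDN4 never exceeded 3 counts. All 10 stromal markers passed the filter, led by VIM at 6832 and 6360.3 CPM and COL1A2 at 3269 and 5295 CPM with progesterone and DMSO. The other epithelial markers were KRT19 at 472 and 446 CPM, KRT7 at 20.1 and 17.3 CPM, CDH1 at 16.3 and 12.7 CPM, KRT18 at 1.43 and 4.06 CPM and MUC1 at 1.05 and 2.51 CPM with progesterone and DMSO. The epithelial list was thus mixed, with KRT8, KRT19, KRT7 and CDH1 present and EPCAM, KRT18, MUC1 and CLDN4 low or near 0, beside abundant stromal genes. The summed stromal level was 12102 to 13294 CPM with progesterone and 13303 to 20583 CPM with DMSO, where R7 had 20583 and R9 19051. That of 6 smooth muscle markers was 1576 to 2114 CPM with progesterone and 2097 to 2950.3 CPM with DMSO. The 6 endothelial markers summed to at most 6.66 and 5.03 CPM, the 7 leukocyte markers to at most 14.4 and 13.7 CPM, and the leukocyte gene PTPRC was at 0 in every library. The part of these markers in the results below was not tested, and in bulk RNA fewer cells of a type and less RNA per cell cannot be told apart.

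Of the 50 genes, 30 had enough counts to be tested, 16 were below the filter with at most 17 counts in any library, and 4 (WNT8A, WNT8B, DKK4 and RSPO3) had no count. A count of 0 allows up to 0.0923 to 0.126 CPM, depending on the library. With all 8 libraries 3 of the 30 passed the threshold of 0.05 for the Benjamini-Hochberg adjusted p of edgeR, taken over all genes: RSPO1 rose, and DKK2 and WNT5A fell. RSPO1 had passed the filter only through its counts in the progesterone libraries. Across all 13557 genes tested, 2.65% passed, 1.69% higher and 0.959% lower with progesterone. Without DMSO R7 and R9, WNT4 rose, DKK2 fell and the other members did not pass, where 1.18% of all genes passed. The groups did not overlap for 6 of the 30 (20%), against 16.2% of all genes: RSPO1, WNT4 and RNF43 were above, and DKK2, WNT5A and WNT10B below, the whole DMSO group. An unadjusted p under 0.05 was reached by 9 of the 30 with all libraries, against 26.8% of all genes, and by 7 of the 30 without DMSO R7 and R9, against 15.9% of all genes. DESeq2 called 7 of the 30, where it called 13.5% of all genes, and limma voom called WNT4 and WNT5A, where it called 2.04%. The median log2 fold change was 0.04 over the tested members and -0.01 over all genes tested, and 21 of the 30 differed by less than 1.5-fold. CPM were not divided by transcript length here, and whether the deposited values had been could not be settled. They are therefore used to compare libraries for a gene. Rankings, sums and shares across genes, as for the markers and the ligands, are descriptive only and may shift with transcript length.

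**Figure D1:**
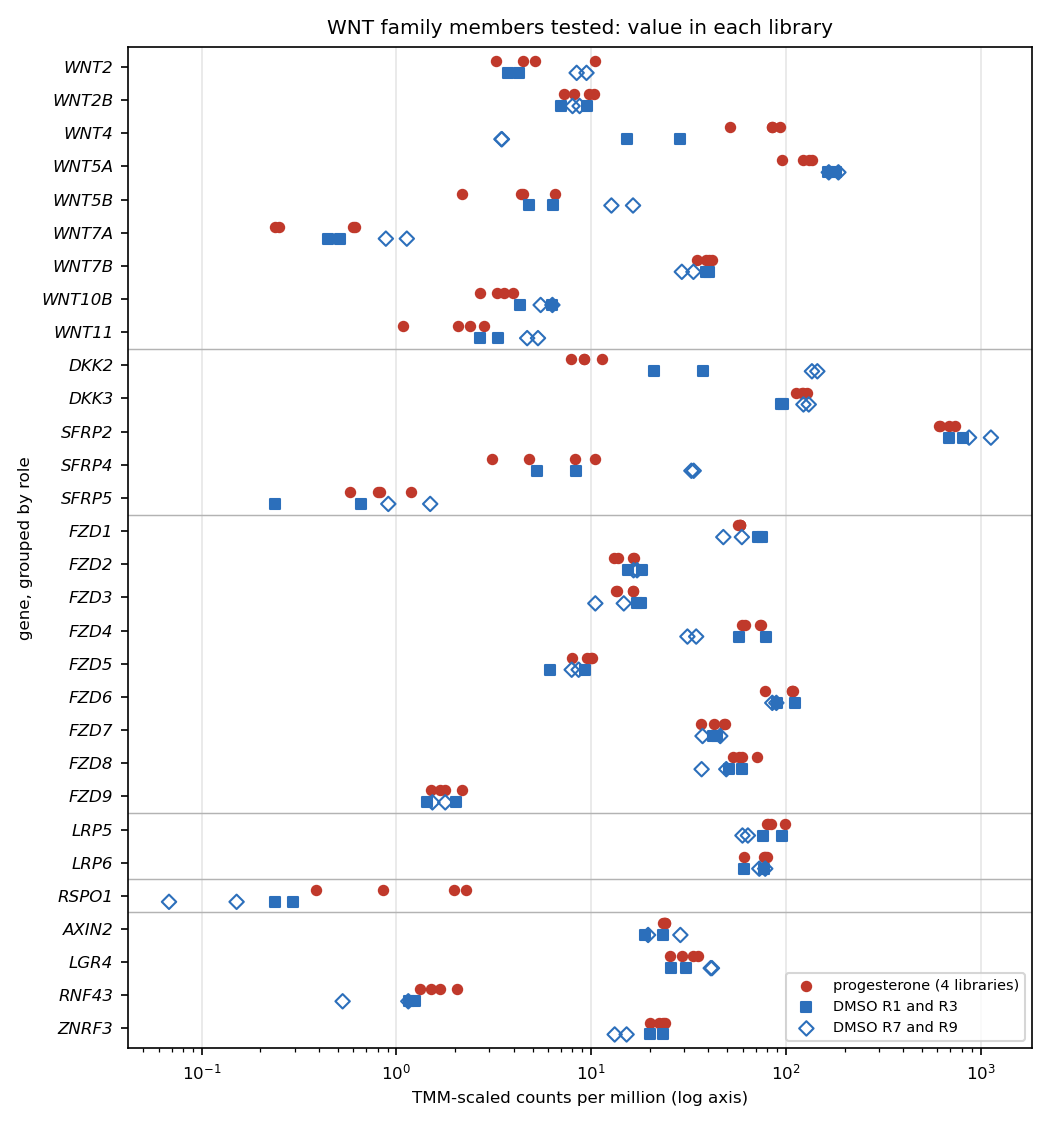
TMM-scaled CPM (log axis) of the 30 tested genes in each library, with progesterone as circles, DMSO R1 and R3 as squares and DMSO R7 and R9 as open diamonds. Most Frizzled and LRP genes lie within the same range in both groups, while WNT4, DKK2 and RSPO1 are separated.

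**Figure D2:**
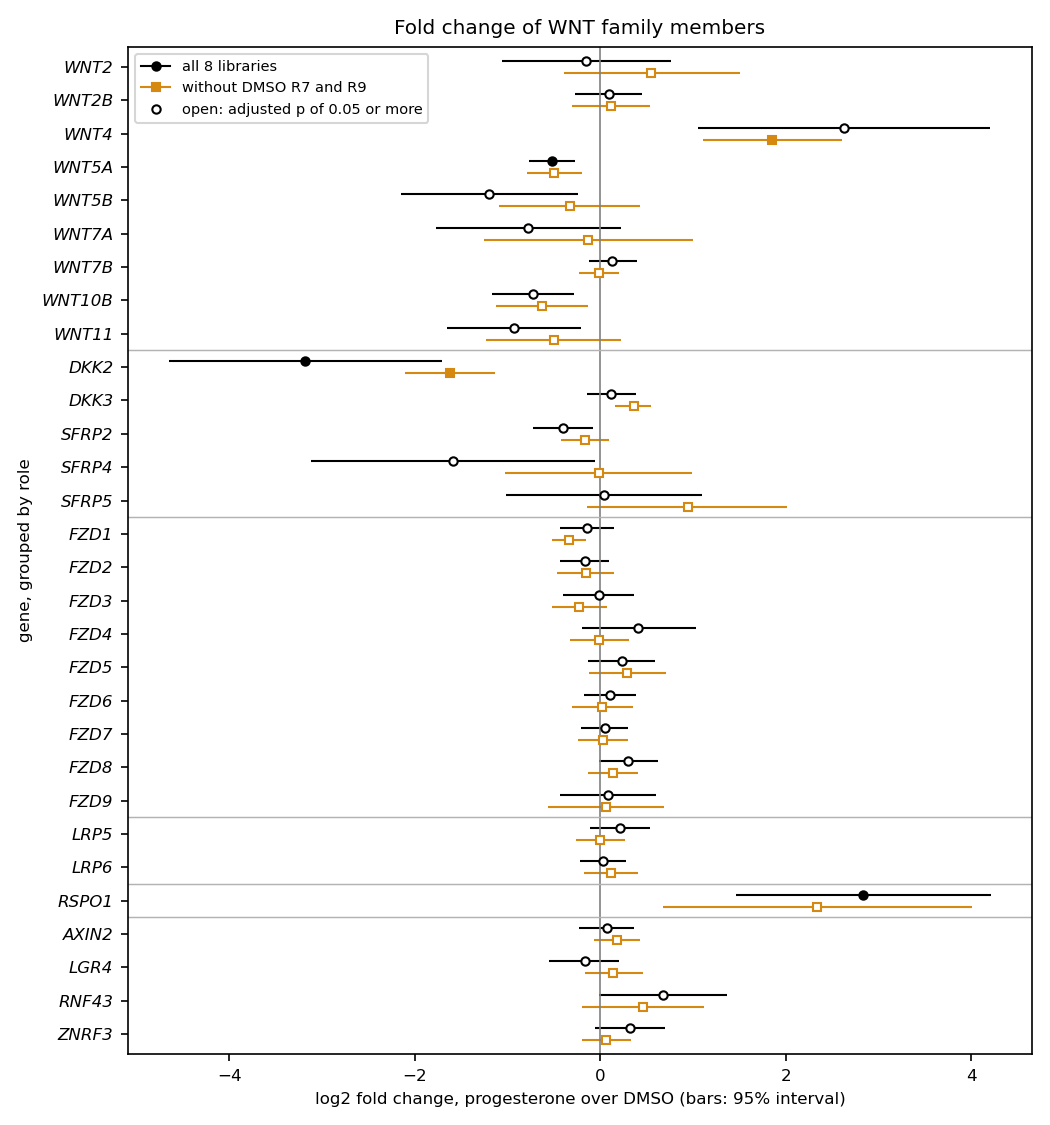
Log2 fold change of progesterone over DMSO with its 95% interval, with all 8 libraries (black) and without DMSO R7 and R9 (orange); filled symbols have an edgeR adjusted p under 0.05. DKK2 is filled in both comparisons, RSPO1 and WNT5A only with all libraries, and WNT4 only without the 2.

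Among the ligands, WNT4 had the largest fold change, and the smallest p was that of WNT5A with all libraries (0.000851) and of WNT4 without DMSO R7 and R9 (0.000526). WNT4 (Entrez Gene 789600, chromosome 2), which acts in gland and stromal development of the mouse uterus, had 84.8, 51.5, 85.2 and 93.3 CPM in progesterone R1, R2, R3 and R6, against 28.6, 15.3, 3.46 and 3.48 CPM in DMSO R1, R3, R7 and R9. Every progesterone library was above every DMSO library, with the lowest at 1.8 times the highest DMSO value, and the DMSO group itself was split. The mean was 78.7 ± 18.6 CPM with progesterone and 12.7 ± 12 CPM with DMSO (SD, n = 4 each). The fold change was 6.18 (2.63 ± 0.68 SE on the log2 scale, 95% interval 1.05 to 4.2) and did not pass with all libraries (edgeR adjusted p = 0.0747). Without R7 and R9 WNT4 rose 3.61-fold (1.85 ± 0.32 SE on the log2 scale, edgeR adjusted p = 0.0481). Leaving out 1 library at a time gave log2 fold changes of 2.31 to 3.41 with edgeR adjusted p of 0.0265 to 0.169, and only the comparison without DMSO R1 passed (adjusted p = 0.0265).

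WNT5A (530005, chromosome 22), a ligand that acts largely through ROR and RYK receptors, had 131, 123, 95.4 and 136 CPM in progesterone R1, R2, R3 and R6, against 181, 165, 186 and 166 CPM in DMSO R1, R3, R7 and R9. The groups did not overlap, and DMSO R7 and R9 were close to R1 and R3 here, unlike for WNT4. It fell to 121 ± 18.1 CPM with progesterone, against 174 ± 10.6 CPM with DMSO (SD, n = 4 each), 1.44-fold lower (log2 fold change -0.52 ± 0.11 SE, 95% interval -0.77 to -0.27, edgeR adjusted p = 0.0444). Without R7 and R9 the size was nearly the same (-0.50 ± 0.13 SE) and the adjusted p was 0.104. With 1 library left out WNT5A passed only without DMSO R1 or DMSO R3, over adjusted p of 0.0337 to 0.137.

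**Figure D3:**
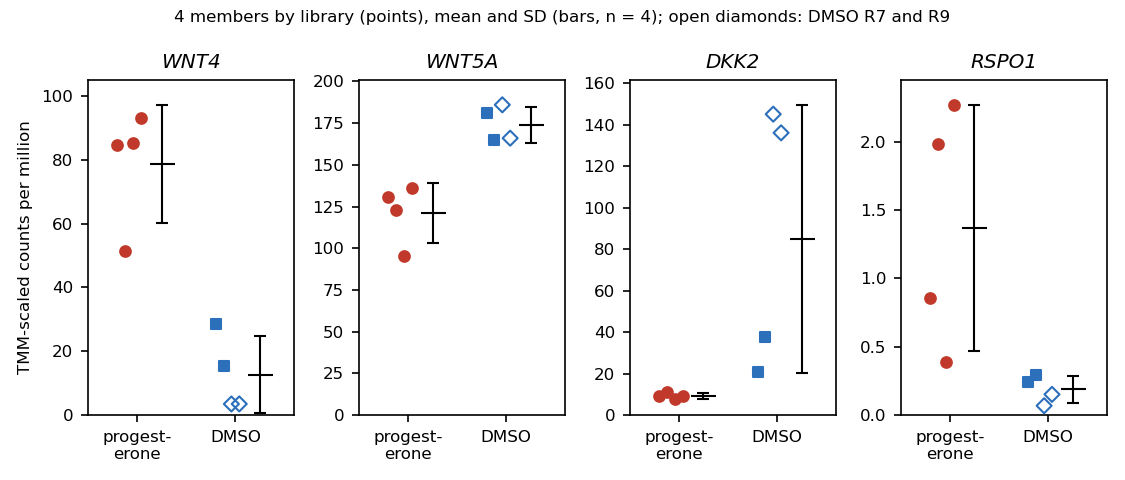
TMM-scaled CPM of WNT4, WNT5A, DKK2 and RSPO1 in the 4 progesterone and 4 DMSO libraries (points), with mean and SD (bars, n = 4); open diamonds are DMSO R7 and R9. The groups are separate for each gene, and R7 and R9 lie far from R1 and R3 for DKK2 and at the low end for WNT4.

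The other 7 tested ligands did not pass in edgeR in either comparison, and DESeq2 called WNT10B, WNT11 and WNT5B. WNT10B (539337, chromosome 5), an activator of beta-catenin signalling that holds back fat cell formation in mice, had 3.27, 3.96, 3.58 and 2.69 CPM in the progesterone libraries, against 4.3, 6.28, 5.5 and 6.32 CPM in DMSO R1, R3, R7 and R9. Its groups did not overlap, by a narrow margin, and R7 and R9 did not stand apart. Its log2 fold change was -0.73 ± 0.20 SE with all libraries (edgeR adjusted p = 0.0731) and -0.63 ± 0.23 SE without R7 and R9 (0.211).

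WNT5B, WNT11 and WNT7A were highest in DMSO R7 and R9. WNT5B, the close relative of WNT5A, was between 2.18 and 6.5 CPM with progesterone, against 4.78 and 6.35 CPM in DMSO R1 and R3 and 16.4 and 12.7 CPM in R7 and R9. Its log2 fold change was -1.20 ± 0.43 SE with all libraries and -0.33 ± 0.34 SE without these 2 (edgeR adjusted p of 0.122 and 0.686). WNT11, a ligand of kidney branching and cell movement in mice, averaged 2.09 ± 0.74 CPM with progesterone and 4 ± 1.22 CPM with DMSO (SD, n = 4 each), with log2 fold changes of -0.93 and -0.50. WNT7A, which patterns the female tract in mice, reached at most 1.13 CPM in a library and had log2 fold changes of -0.78 and -0.13.

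WNT7B, WNT2B and WNT2 showed no difference beyond the spread of the libraries. WNT7B was between 35.1 and 41.5 CPM with progesterone and between 29.2 and 40.5 CPM with DMSO, and its 95% interval of the log2 fold change ran from -0.12 to 0.39. WNT2B was between 7.27 and 10.3 CPM with progesterone and between 7.01 and 9.49 CPM with DMSO, with an interval from -0.27 to 0.45. WNT2, which serves lung and placenta in mice, was at 10.5 CPM in progesterone R6 and at 3.25 to 5.13 CPM in the other 3, against 8.42 and 9.46 CPM in DMSO R7 and R9 and 4.27 and 3.75 CPM in R1 and R3. Its log2 fold change changed sign, at -0.15 in the full comparison and 0.55 without DMSO R7 and R9. WNT1, WNT3, WNT3A, WNT6, WNT9A, WNT9B, WNT10A and WNT16 were below the filter, with at most 10.8 counts in a library.

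Within a library, WNT4 took a larger part of all ligand counts with progesterone and WNT5A a smaller one. These shares need no scaling between libraries, but they are of estimated counts and may favour long transcripts. WNT4 made up 30.3%, 21.7%, 34.6% and 31.8% of the estimated counts of the 19 ligands in progesterone R1, R2, R3 and R6, against 10.3%, 6.22%, 1.29% and 1.44% in DMSO R1, R3, R7 and R9. WNT5A made up 46.8%, 51.9%, 38.7% and 46.4% with progesterone, against 65.3%, 67.1%, 69.2% and 68.7% with DMSO in the same order. The groups were separate for both shares, but the shares are not independent. They are parts of the same total, so a larger WNT4 share by itself lowers the WNT5A share. For each WNT4 count there were 1.12 to 2.39 WNT5A counts with progesterone, against 6.32 and 10.8 in DMSO R1 and R3 and 53.5 and 47.8 in R7 and R9. Summed over all ligands the level was 237 to 293 CPM with progesterone and 241 to 277 CPM with DMSO, so the make-up differed while the sums overlapped.

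**Figure D4:**
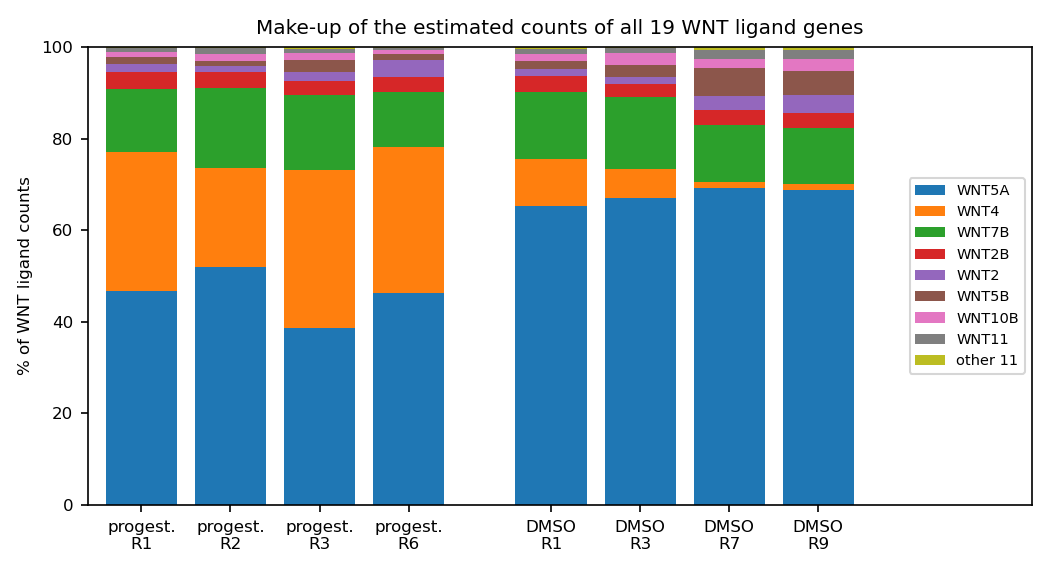
Share (%) of the estimated counts of all 19 WNT ligand genes taken by each ligand in the 4 progesterone (left) and 4 DMSO libraries (right). WNT4 takes 21.7% to 34.6% with progesterone and 1.29% to 10.3% with DMSO.

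Of the 10 secreted antagonists 5 were tested, 1 fell and 4 did not pass. DKK2 (541161, chromosome 6), a ligand of LRP5 and LRP6 that blocks their use by WNT proteins, had 9.23, 11.3, 7.83 and 9.14 CPM in progesterone R1, R2, R3 and R6, against 20.9, 37.5, 145 and 136 CPM in DMSO R1, R3, R7 and R9. The progesterone libraries were close together and below all DMSO libraries, whose lowest value was 1.85 times the highest progesterone value. DMSO R7 and R9 averaged 4.82 times the mean of R1 and R3. DKK2 fell to 9.36 ± 1.41 CPM with progesterone, against 84.8 ± 64.7 CPM with DMSO (SD, n = 4 each), 9.06-fold lower (log2 fold change -3.18 ± 0.64 SE, 95% interval -4.65 to -1.71, edgeR adjusted p = 0.0479). Without R7 and R9 it also fell, by 1.62 on the log2 scale (± 0.22 SE, 95% interval -2.11 to -1.14, edgeR adjusted p = 0.00888). With 1 library left out DKK2 passed without DMSO R1 or R3 and missed the threshold in the other 6 comparisons, at adjusted p of up to 0.132.

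SFRP4 (518004, chromosome 4), which binds WNT proteins through a Frizzled-like domain, had 4.8, 3.09, 8.22 and 10.4 CPM in the progesterone libraries, against 5.26, 8.34, 32.7 and 33.6 CPM in DMSO R1, R3, R7 and R9. DMSO R7 and R9 were alone at the top, and R1 and R3 were within the range of progesterone. The log2 fold change was -1.59 ± 0.66 SE with all libraries and -0.02 ± 0.44 SE without these 2 (edgeR adjusted p = 0.175 and 0.987). SFRP2 was between 609 and 736 CPM with progesterone, against 814 and 684 CPM in DMSO R1 and R3 and 1129 and 872 CPM in R7 and R9, at log2 fold changes of -0.40 and -0.17. SFRP5 reached at most 1.49 CPM in a library and had log2 fold changes of 0.04 and 0.94, both short of the threshold.

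DKK3 (506627, chromosome 15), a divergent member that does not block LRP6 as the others do, did not pass in either comparison. It had 128, 112, 121 and 123 CPM with progesterone, against 96.5, 94.1, 131 and 123 CPM in DMSO R1, R3, R7 and R9. Progesterone libraries were above DMSO R1 and R3 and level with R7 and R9. The log2 fold change was 0.12 ± 0.12 SE with all libraries and 0.36 ± 0.09 SE with DMSO R7 and R9 removed (edgeR adjusted p = 0.523 and 0.0809). DKK3 counts per DKK2 count were 9.98 to 15.4 with progesterone, against 4.63 and 2.51 in DMSO R1 and R3 and 0.903 and 0.907 in R7 and R9. DKK1, FRZB, SFRP1 and WIF1 were below the filter, so the antagonists measured here are DKK2, DKK3, SFRP2, SFRP4 and SFRP5.

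RSPO1 (511675, chromosome 3), the R-spondin that binds LGR receptors to keep Frizzled at the surface, had 0.856, 1.98, 0.386 and 2.27 CPM in progesterone R1, R2, R3 and R6, against 0.239, 0.294, 0.0679 and 0.151 CPM in DMSO R1, R3, R7 and R9. These are 27.7, 50.2, 10.8 and 54.9 estimated counts with progesterone, against 7.1, 8, 1.5 and 4.2 with DMSO, so counting error is large. The groups did not overlap, and progesterone R3 was the closest to DMSO. RSPO1 rose 7.13-fold (log2 fold change 2.83 ± 0.62 SE, 95% interval 1.46 to 4.21, edgeR adjusted p = 0.0459). It passed the filter on low counts only through the progesterone libraries, so its being tested depended on the group where it was high. Removing R7 and R9 gave 2.34 ± 0.74 SE on the log2 scale, which did not pass (edgeR adjusted p = 0.168). With 1 library left out it passed without progesterone R3, DMSO R1 or DMSO R3 and missed in the other 5, at adjusted p of up to 0.13. RSPO2 and RSPO4 had at most 1 count in a library.

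The receptors and ligases on which R-spondins act did not pass in either comparison. LGR4 was present, at 25.4 to 35.5 CPM with progesterone and 25.8 to 41.7 CPM with DMSO, where R7 and R9 were the highest of all 8 (log2 fold change -0.17 ± 0.17 SE, and 0.14 without them). LGR5 had no count in the 4 progesterone libraries and at most 4 in a DMSO library, below the filter. RNF43 had 1.68, 1.51, 2.04 and 1.32 CPM with progesterone, against 1.16, 1.25, 1.15 and 0.529 CPM in DMSO R1, R3, R7 and R9. Its groups did not overlap, yet with 14.5 to 58.4 counts in a library its log2 fold change of 0.68 ± 0.31 SE did not pass (edgeR adjusted p = 0.193, and 0.496 without R7 and R9). ZNRF3 was at 22.4 ± 1.66 CPM with progesterone and 17.9 ± 4.62 CPM with DMSO (SD, n = 4 each), where R1 and R3 had 23.4 and 20 CPM and R7 and R9 had 15.2 and 13.2.

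AXIN2 (511619, chromosome 19), a scaffold of the complex that degrades beta-catenin and itself a common target of beta-catenin, showed no difference beyond its spread. It had 23.5, 23.9, 23.6 and 23.8 CPM in the progesterone libraries, against 23.5, 18.8, 28.7 and 19.6 CPM in DMSO R1, R3, R7 and R9. The progesterone values lay within the range of DMSO. The log2 fold change was 0.07 ± 0.13 SE, with a 95% interval of -0.23 to 0.36, and 0.18 ± 0.11 SE with DMSO R7 and R9 removed (edgeR adjusted p = 0.776 and 0.493). 

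Of the 10 Frizzled receptors 9 were tested and none passed in edgeR, where none had an unadjusted p under 0.05, against 26.8% of all genes. DESeq2, limma voom and edgeR without R7 and R9 also called 0 (1 gene, FZD1, had an unadjusted p under 0.05 without these 2, against 15.9% of all genes), and FZD10 had at most 1 count. Log2 fold changes ran from -0.17 (FZD2) to 0.41 (FZD4). The 9 genes span the related pairs and triplets of the family: FZD1, FZD2 and FZD7; FZD3 and FZD6; FZD5 and FZD8; and FZD4 and FZD9. FZD4, which also binds norrin, had 74.7, 73.6, 59.6 and 61.3 CPM with progesterone, against 79.1, 57.4, 34.6 and 31.2 CPM in DMSO R1, R3, R7 and R9. Only R7 and R9 were low, and the log2 fold change was 0.41 ± 0.27 SE with them and -0.01 ± 0.14 SE without them. With 1 library left out FZD4 passed only without DMSO R1 (edgeR adjusted p = 0.0478), where 1782 of 13700 genes passed. No other Frizzled gene passed in such a fit.

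FZD1 (445417) had 58.2, 58.3, 58.1 and 56.9 CPM in the progesterone libraries, against 75.5, 72.3, 59.4 and 47.7 CPM in DMSO R1, R3, R7 and R9. DMSO R1, R3 and, by a small margin, R7 lay above all progesterone libraries, and R9 lay below them. The log2 fold change was -0.14 ± 0.13 SE with all libraries and -0.34 ± 0.08 SE with DMSO R7 and R9 removed (edgeR adjusted p = 0.516 and 0.0736). FZD8 was between 53.7 and 71.3 CPM with progesterone and between 36.9 and 59.2 CPM with DMSO, at a log2 fold change of 0.30 ± 0.14 SE (edgeR adjusted p = 0.211). FZD6, FZD7, FZD2, FZD3, FZD5 and FZD9 differed by at most 0.23 on the log2 scale with all libraries and by at most 0.29 without R7 and R9.

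The coreceptors LRP5 and LRP6, which join Frizzled to pass on a beta-catenin signal, did not pass in edgeR, DESeq2 or limma voom, and neither had an unadjusted p under 0.05. LRP5 was at 79.6 to 98.4 CPM with progesterone, against 96 and 76.5 CPM in DMSO R1 and R3 and 63.8 and 59.8 CPM in R7 and R9. LRP6 was at 61.1 to 80 CPM with progesterone and at 60.8 to 78.3 CPM with DMSO, and its 95% interval of the log2 fold change ran from -0.22 to 0.28. R7 and R9 were thus low for LRP5 and within the range of the other libraries for LRP6.

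DMSO R7 and R9 were both the highest of the 8 libraries for 7 of the 30 genes and both the lowest for 8, together 50%, against 49.2% of all genes tested. They were highest for DKK2, SFRP2, SFRP4, WNT5B, WNT7A, WNT11 and LGR4, and lowest for WNT4, WNT7B, FZD4, FZD8, LRP5, RSPO1, RNF43 and ZNRF3. The share in the family was thus close to that over all genes. Within DMSO, R7 and R9 together averaged 4.88 times R1 and R3 for SFRP4, 2.61 times for WNT5B and 2.23 times for WNT2, while R1 and R3 averaged 6.32 times R7 and R9 for WNT4 and 2.43 times for RSPO1.

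Other genes of the pathway were read from 5 lists, all of whose members were found in the table. Of 3 genes of WNT release and deacylation (PORCN, WLS and NOTUM), 0 passed in edgeR, DESeq2, limma voom or without R7 and R9. An unadjusted p under 0.05 was reached by 1 with all libraries and 0 without the 2, against 26.8% and 15.9% of all genes. NOTUM, an enzyme that strips the lipid from WNT proteins, was at 7.22 ± 0.191 CPM with progesterone and 9.44 ± 1.72 CPM with DMSO (SD, n = 4 each; edgeR adjusted p = 0.16). WLS, which carries WNT proteins to the surface, had a log2 fold change of -0.08 ± 0.09 SE, and PORCN, which adds the lipid, of -0.03 ± 0.17 SE.

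Of 13 alternative receptors and planar polarity genes 12 were tested, 1 rose, 0 fell and 11 did not pass, with 7 at an unadjusted p under 0.05 (26.8% of all genes). PRICKLE2 (537192, chromosome 22), a cytoplasmic planar polarity protein, had 11.3, 8.8, 6.5 and 15.1 CPM with progesterone, against 4.81, 4.3, 4.34 and 3.29 CPM in DMSO R1, R3, R7 and R9. The groups did not overlap, and it rose by 1.32 on the log2 scale (± 0.25 SE, edgeR adjusted p = 0.0327). Its log2 fold change was 1.21 once DMSO R7 and R9 were removed, short of the threshold (edgeR adjusted p = 0.0987). None of the WNT5A receptors passed in edgeR. ROR2 was at 116 ± 10.3 CPM with progesterone and 91.9 ± 11.8 CPM with DMSO (SD, n = 4 each), without overlap, at log2 fold changes of 0.34 with all libraries (edgeR adjusted p = 0.0948) and 0.22 without R7 and R9 (0.311). RYK was at 132 ± 5.93 CPM with progesterone and 164 ± 21.7 CPM with DMSO (SD, n = 4 each), without overlap, at -0.32 (edgeR adjusted p = 0.0938) and -0.14 (0.448). ROR1 overlapped, at -0.10 (edgeR adjusted p = 0.792) and 0.30 (0.474). DESeq2 called 4 of the 12 (PRICKLE2, ROR2, RYK and SCRIB), where it called 13.5% of all genes. Limma voom and edgeR without R7 and R9 called 0. Without R7 and R9, 4 had an unadjusted p under 0.05, against 15.9% of all genes. SCRIB, a polarity scaffold, had a log2 fold change of 0.29 ± 0.07 SE (edgeR adjusted p = 0.0598).

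Of 16 extracellular modulators outside the families 11 were tested and 0 passed in edgeR with or without R7 and R9. With and without them, 4 and 1 had an unadjusted p below 0.05 (26.8% and 15.9% of all genes). Voom called 0 and DESeq2 called 1 gene, where DESeq2 called 13.5% of all genes. That gene, TPBG, an inhibitor of LRP6 signalling, was at 99.6 ± 9.39 CPM with progesterone and 79.5 ± 7.41 CPM with DMSO (SD, n = 4 each; edgeR adjusted p = 0.0853). GPC4, a cell-surface proteoglycan, had a log2 fold change of -1.50 ± 0.54 SE, and -0.08 without R7 and R9. KREMEN1, a receptor that works with DKK proteins, had log2 fold changes of 0.48 ± 0.19 SE and 0.22.

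All 31 genes of intracellular transduction were tested and 0 passed in edgeR with or without R7 and R9. With and without them, 7 and 3 had an unadjusted p below 0.05 (26.8% and 15.9% of all genes). Voom called 0 and DESeq2 called 3, where DESeq2 called 13.5% of all genes. The median log2 fold change of the 31 was 0.05, against -0.01 over all genes. GSK3B, the kinase that marks beta-catenin for destruction, had -0.53 ± 0.15 SE and -0.19 without R7 and R9, and CTNNB1, beta-catenin itself, had -0.18 ± 0.10 SE and -0.05. DVL1 and DVL2, which link Frizzled to the destruction complex, had 0.34 ± 0.10 and 0.30 ± 0.10 SE (edgeR adjusted p = 0.0811 and 0.0935).

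Of 16 genes commonly driven by beta-catenin 13 were tested and 0 passed in edgeR with or without R7 and R9. With and without them, 7 and 4 had an unadjusted p below 0.05 (26.8% and 15.9% of all genes). Voom called 0 and DESeq2 called 2, where DESeq2 called 13.5% of all genes. EPHB2, SP5 and ASCL2 were below the filter. EPHB2 had 53.4 and 35.3 counts in DMSO R7 and R9 and at most 4 in any other library. SP5 had 12.7 and 6.1 counts in these 2 and at most 1.2 elsewhere, and ASCL2 at most 2.2 in any library. BAMBI, TNFRSF19 and TCF7 had the smallest p, with log2 fold changes of 0.56 ± 0.16, 1.07 ± 0.34 and 0.55 ± 0.19 SE (edgeR adjusted p = 0.0749, 0.0953 and 0.111). TNFRSF19 had only 12.2 to 25.3 counts in a progesterone library and 6.1 to 13 in a DMSO library. The groups overlapped for TCF7. The lists share genes: TCF7 and LEF1 are counted in both of the last lists, and NOTUM in the first and the last. LEF1, a transcription factor that works with beta-catenin, averaged 0.434 ± 0.294 CPM with progesterone and 2.97 ± 3.48 CPM with DMSO (SD, n = 4 each). Its DMSO mean was 0.213 CPM in R1 and R3 and 5.72 CPM in R7 and R9, and its log2 fold change was -2.80 with all libraries and 0.98 without these 2, with no pass in either. CCND1, a cyclin, likewise had -0.66 ± 0.25 SE and -0.12. The median over the list was -0.09 in the full comparison and 0.11 without these 2 libraries, against -0.01 and 0.01 over all genes.

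**Figure D5:**
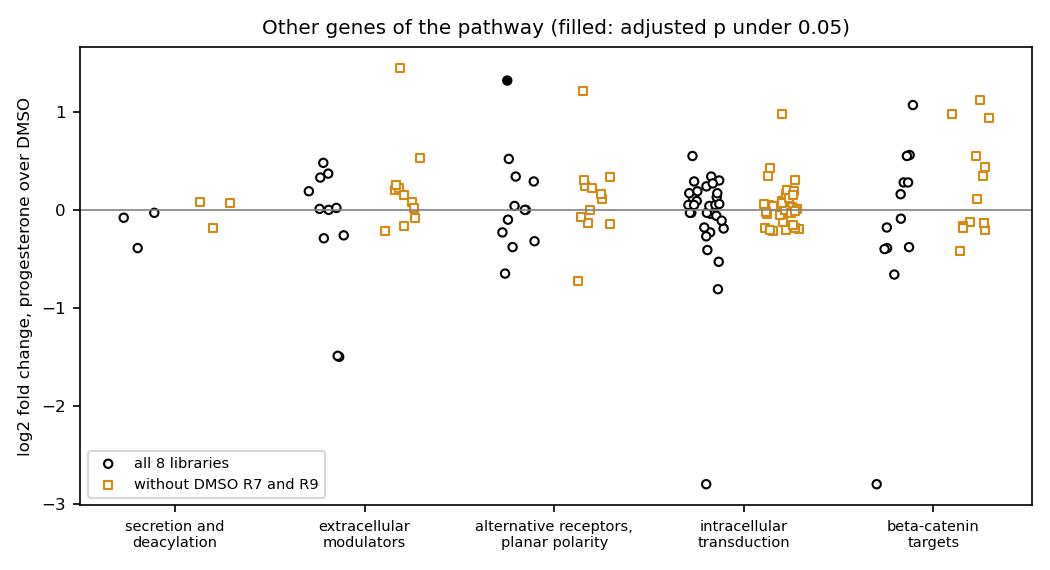
Log2 fold change of progesterone over DMSO for the tested genes of 5 related lists, with all 8 libraries (circles) and without DMSO R7 and R9 (squares). The filled circle is PRICKLE2 at 1.32, and the circles at -2.80 are LEF1, which is in both right-hand lists.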

How the data were processed

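RNA-seq libraries were made with a stranded mRNA kit, per the labels' protocols. The deposited table holds estimated counts per gene for 8 columns. Salmon 1.4.0, bcl2fastq and build ARS-UCD1.2 appear in the submitters' processing notes, with no role stated. No source used here states how transcript estimates became gene values. The file's title speaks of length normalization, and whether and how it was applied could not be settled from the values. Chromosomes are those of the deposited table, and no coordinates or sequences are printed. Salmon-type estimates assign shared reads by a model, so near-identical copies are uncertain.

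Estimated counts were rounded, filtered with filterByExpr by group, scaled by TMM (CPM are counts over the effective library size) and tested with edgeR 4.0.16 (quasi-likelihood, robust, two-sided; R 4.3.3) between progesterone and DMSO, with Benjamini-Hochberg adjustment over all genes and a threshold of 0.05. An SE is the size of the log2 fold change divided by the square root of F. Alternatives were RLE, upper-quartile and library-size scaling, other filters, DESeq2 1.42.0, limma 3.58.1 voom, unrounded values, no robust estimation, leaving out libraries, a term for DMSO R7 and R9 and the column number as a block. The test was also run on simulated counts, and no result of that run is given here. Such counts need not carry the split seen within DMSO, so no conclusion is drawn from the run. Within groups, pairs of libraries differed by more than sampling noise (chi-square per degree of freedom of 14.9 to 137). Whether the libraries came from separate cultures is not stated, so p-values measure the spread between these libraries, which may be technical.

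The members, the gene lists and the alternatives were chosen with earlier results of these data known. Named with values are members past the threshold, members averaging 1 CPM or more in either group, DKK2, WNT4 and RSPO1, and of each related list the genes past the threshold and the 3 with the smallest p. CTNNB1, ROR1, ROR2, LEF1, CCND1, SFRP5, WNT7A and the counts of FZD10, LGR5, RSPO2, RSPO4, EPHB2, SP5 and ASCL2 were given besides, after their values were seen.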

Additional observations from a re-analysis of the deposited data

Results flagged for a closer look

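In 4 of 60 groups of 4 libraries (30 genes in 2 groups) 1 library lay far from the other 3, by Dixon's test at 95%; chance flags about 1 in 20 groups. FZD6 was at 78.5 CPM in progesterone R3, with the other 3 progesterone libraries between 108 and 109 CPM. LRP6 was at 61.1 CPM in the same library, with the others between 77 and 80 CPM. FZD1 was at 56.9 CPM in progesterone R6, with the others between 58.1 and 58.3 CPM, a gap that is small in size. RNF43 was at 0.529 CPM in DMSO R9, with the others between 1.15 and 1.25 CPM.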

How the results depend on the processing

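Counts of the 30 tested members past the threshold were 1 higher and 2 lower with all libraries. The lower count was 1 with library-size scaling, without a filter, with limma voom, without DMSO R7 and R9, and with a term for them, and 5 with DESeq2. The higher count was 2 with DESeq2 and 0 with a filter at a mean of 1 CPM, which left RSPO1 untested. Leaving out 1 library gave 0 to 3 higher and 0 to 4 lower, the most without DMSO R1. Over all genes, 229 higher and 130 lower became 888 and 942 with DESeq2, 137 and 25 without R7 and R9, 78 lower with voom, 81 lower with the term, and 36 to 818 higher and 6 to 964 lower with 1 library left out. Related genes called were 1 with all libraries, 10 with DESeq2, 0 with voom, without R7 and R9 or with the term, and 0 to 13 with 1 library left out.

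Adjusted p over all alternatives ran from 5.81e-05 to 0.302 for DKK2 (passing in 11 of 20), 0.00153 to 0.168 for RSPO1 (10 of 19), 7.57e-13 to 0.137 for WNT5A (11 of 20) and 0.00684 to 0.227 for WNT4 (5 of 20). None of these 4 changed direction in any alternative run. Signs turned only for members short of the threshold with all libraries: FZD3 at 0.01 without a filter; FZD4 (-0.01), LGR4 (0.14), WNT2 (0.55) and WNT7B (-0.01) without R7 and R9; and FZD4 (-0.02), LRP5 (-0.01), LGR4 (0.13), WNT2 (0.54) and WNT7B (-0.03) with the term. With 1 library left out log2 fold changes ran from -0.16 to 0.08 for FZD3, -0.59 to 0.09 for WNT2, -0.26 to 0.5 for SFRP5, -0.03 to 0.18 for FZD9, -0.04 to 0.12 for LRP6, -0.01 to 0.2 for AXIN2 and -0.01 to 0.13 for FZD7. The causes were not tested.

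Columns numbered R1 and R3 occur in both groups, and their deviations correlated at 0.256 and 0.263, against -0.199 to 0.143 for other pairs. Whether columns of the same number belong together could not be told and was not tested. With the column number as a replicate block only the R1 and R3 columns inform the comparison, as no other number occurs in both groups. There 1450 genes were higher and 1081 lower, 1 member was higher and 4 were lower, and 22 related genes were called. These members were DKK3 (0.38), FZD1 (-0.35), FZD3 (-0.38), WNT10B (-0.61) and WNT5A (-0.63), of which WNT5A is the 1 shared with the fit without the block. DKK2 and RSPO1 did not pass there (edgeR adjusted p = 0.302 and 0.121). In that fit FZD4 was at -0.02, FZD6 at -0.12, LGR4 at 0.10, WNT2 at 0.25, WNT7A at 0.34 and WNT7B at 0.00. Depth limits the 16 members below the filter and RSPO1, WNT7A, SFRP5 and RNF43.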
